A study of Mus musculus with 16 samples.

Results

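White adipose tissue of Sirt1 knockout mice on a high fat diet was compared with that of wild-type mice fed low fat. These groups are opposite corners of a design that crossed genotype with diet, so that both differ between them. All animals were of the C57BL6/J background. The knockout mice carried a Cre transgene under the promoter of fatty acid binding protein 4 (FABP4-Cre), and the wild-type mice carried none. Both groups ate their diet for 8 weeks, from 4 weeks to 12 weeks of age. The groups were taken from the array titles, which name 4 arrays for the knockout on high fat and 4 for the wild type on low fat, 8 of the 16 arrays in the series. The remaining 8 arrays, 4 of wild-type mice on the high fat diet and 4 of knockout mice on the low fat diet, were used to estimate the spread and to place the change between the corners. No array came from mice with Cre and intact Sirt1, so that loss of Sirt1 and presence of the transgene cannot be told apart. FABP4 is also made in macrophages, and whole-tissue arrays do not show in which cells Sirt1 was deleted. The labels do not name the fat depot.

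White fat stores energy as triglyceride in large lipid droplets and releases hormones such as leptin and adiponectin. In diet-induced obesity adipocytes enlarge, the collagen matrix around them is remodelled, and macrophages that take up lipid gather around dying adipocytes. SIRT1 is an NAD-dependent deacetylase whose known substrates include PGC-1alpha, FOXO1, p53 and the p65 subunit of NF-kB, and it is known as a brake on inflammatory transcription and on fat storage in adipocytes.

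Expression is given as the log2 values that the authors deposited, so that a difference of 1 is a 2-fold change. Each gene was read from its brightest probe set, the one with the highest mean over the 16 arrays. Genes whose probe set reached a log2 of 4 in 4 or more arrays were tested, 12078 of 18193. The medians of the 16 arrays were 4.34 to 4.46, so values under 4 lie in the lower part of every array. Where all 4 values of a group lay under 4, the change with every value under 4 set to 4 is given beside the printed change. Changes are differences between the means of 4 and 4 arrays with their standard error (SE). limma gave the p-values, which were adjusted by Benjamini-Hochberg across the genes tested, and a gene was called at an adjusted p under 0.05. Array values are listed in the order of replicates 1 to 4. With 4 arrays a group the precision is limited, and since the labels do not say that replicates were separate mice, a p-value here reflects how far these samples scatter.

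The adipocyte hormone adiponectin marked the tissue in all 8 arrays, with Adipoq between 13.19 and 13.68. Some arrays also held transcripts of skeletal muscle. Tnnt3, a fast-muscle troponin, was 4.86, 4.49, 10.52 and 9.48 in the wild-type low fat arrays and 5.88, 5.95, 3.62 and 8.20 in the knockout high fat arrays. Wild-type low fat replicates 3 and 4 and knockout high fat replicate 4 were therefore also left out, together with 2 arrays of the intermediate groups that had Tnnt3 at 8 or more. The effect is given where it matters. Wild-type high fat replicate 4, with Tnnt3 at 7.95, and knockout low fat replicate 1, at 7.37, stayed in, so that the arrays kept are not free of muscle transcripts. Leaving out the 5 arrays also leaves fewer arrays in every group, so that a call can be lost with little change in size. Arrays within a group correlated with r between 0.987 and 0.996. Xist, which is transcribed from the inactive X chromosome of females, lay between 11.39 and 11.89 in the 8 arrays, and the Y-linked Eif2s3y between 1.85 and 2.14.

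Sirt1 was lower in knockout high fat tissue. Its single probe set gave 9.42, 9.88, 9.02 and 9.41 in the wild-type low fat arrays and 8.30, 8.93, 8.81 and 8.93 in the knockout high fat arrays. Every knockout array lay under every wild-type array, and the mean fell by 0.69 (SE 0.18, adjusted p = 0.00524), to a level of 8.74. The Sirt1 call was made under every alternative setting. Whether the probe set lies inside the deleted part is unknown, so that a transcript without the deleted part could still be read and the value does not check the genotype. The intermediate groups had Sirt1 means of 9.24 for the knockout on low fat and 8.97 for the wild type on high fat.

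Of the enzymes that make or use NAD, the cofactor of sirtuins, some were higher and some lower. Among 21 tested genes of sirtuins and NAD metabolism 4 rose and 6 fell, with a median change of -0.14 against a median of 0.02 over all genes tested. Over all genes tested 46.7% were called, 25.5% as higher and 21.2% as lower, and these shares are the background for every count that follows. Nampt, the rate-limiting enzyme of NAD salvage, gave 10.23, 10.39, 9.88 and 10.26 in wild-type low fat and 8.69, 9.60, 9.56 and 9.72 in knockout high fat. The arrays did not overlap, and Nampt fell by 0.80 (SE 0.19, adjusted p = 0.003). Nadk2, the mitochondrial NAD kinase, fell by 1.66 (SE 0.19, adjusted p = 2.71e-06), or by 0.99 as the mean of its probe sets. Bst1, an ecto-enzyme that consumes NAD, rose by 2.03 (SE 0.28, adjusted p = 2.27e-05). Without the 5 arrays with muscle transcripts only 2 genes of the list rose.

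In all, 5638 genes differed between the groups, 3082 of them higher and 2556 lower in knockout high fat tissue. At least 2-fold rises numbered 1289 and at least 2-fold falls 685, and at least 4-fold rises 426 against 138 falls, so that the largest changes were mostly rises. In 4777 genes, 39.6% of those tested, the 4 arrays of one group all lay above the 4 of the other. The balance between rises and falls depended on the scaling. Rises made up 54.7% of the calls on the deposited values, 50.9% after quantile normalization and 44.2%, 2622 rises and 3308 falls, once every array had been shifted to a common median. That centring moved the median change from 0.02 to -0.07. Without the 5 arrays with muscle transcripts 1660 falls were called.

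The 12 largest rises included genes known from macrophages, from inflammation and from serotonin synthesis. Gpr50, which encodes an orphan receptor related to the melatonin receptors, was 3.17, 1.53, 2.06 and 2.40 in wild-type low fat and 11.07, 10.37, 10.25 and 10.47 in knockout high fat. All wild-type values lay in the lower part of the scale and all knockout values above 10, and the rise was 8.26 (SE 0.74, adjusted p = 3.17e-07), or 6.54 with the floor at 4 and 4.96 as the mean of its probe sets. Tph2, the neuronal form of tryptophan hydroxylase that starts serotonin synthesis, read 8.19, 3.10, 2.65 and 2.62 in wild-type low fat and 12.16, 12.19, 12.39 and 12.64 in knockout high fat. Replicate 1 of the wild type stood far above its group, yet below every knockout array, and Tph2 rose by 8.20 (SE 0.91, adjusted p = 2.35e-06).

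Olr1, a scavenger receptor for oxidized LDL, measured 2.49, 2.98, 2.43 and 2.41 against 8.90, 8.86, 9.38 and 9.57. The groups were clearly separate, and the rise was 6.60 (SE 0.32, adjusted p = 2.02e-09), or 5.18 with the floor at 4. Il1rn, whose product blocks the interleukin-1 receptor, went from 4.57, 4.14, 3.55 and 4.46 to 10.89, 10.54, 10.56 and 10.77, a rise of 6.51 (SE 0.58, adjusted p = 2.75e-07). No knockout array of Il1rn came within reach of a wild-type array. Rnf128, an E3 ubiquitin ligase known from T cells, rose by 6.21 (SE 0.78, adjusted p = 7.95e-06), and Rgs1, a regulator of chemokine receptor signalling in leukocytes, by 6.18 (SE 0.68, adjusted p = 1.99e-06). Itgax, the integrin CD11c of dendritic cells and inflammatory macrophages, rose by 6.07 (SE 0.40, adjusted p = 2.12e-08), and Mmp12, the macrophage metalloelastase, by 6.06 (SE 0.59, adjusted p = 6.39e-07). These 4 genes were each at or above 9.88 in every knockout high fat array and at or below 6.80 in every wild-type low fat array.

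S100a8, a subunit of the inflammatory protein calprotectin, was 5.80, 4.28, 5.35 and 5.12 in wild-type low fat and 10.83, 10.30, 11.07 and 11.40 in knockout high fat. The groups did not overlap, and the rise was 5.76 (SE 0.41, adjusted p = 4.41e-08). Its partner subunit S100a9 overlapped between the groups, with 5.55, 4.88, 6.62 and 6.37 against 6.90, 6.37, 6.20 and 5.88, and differed by 0.48 (SE 0.69, adjusted p = 0.592), which was not called. Atp6v0d2, a proton pump subunit of macrophage and osteoclast lysosomes, rose by 5.61 (SE 0.49, adjusted p = 2.51e-07). Lipf, the gastric triglyceride lipase, was 2.43, 2.01, 1.84 and 1.96 and 7.29, 7.39, 7.29 and 8.12, a rise of 5.46 (SE 0.30, adjusted p = 6e-09), or 3.52 with the floor at 4. F7, coagulation factor VII, rose by 5.44 (SE 0.55, adjusted p = 9.81e-07), or by 4.198 with the floor. For Lipf and F7 all wild-type values lay under 4.

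**Figure D1:**
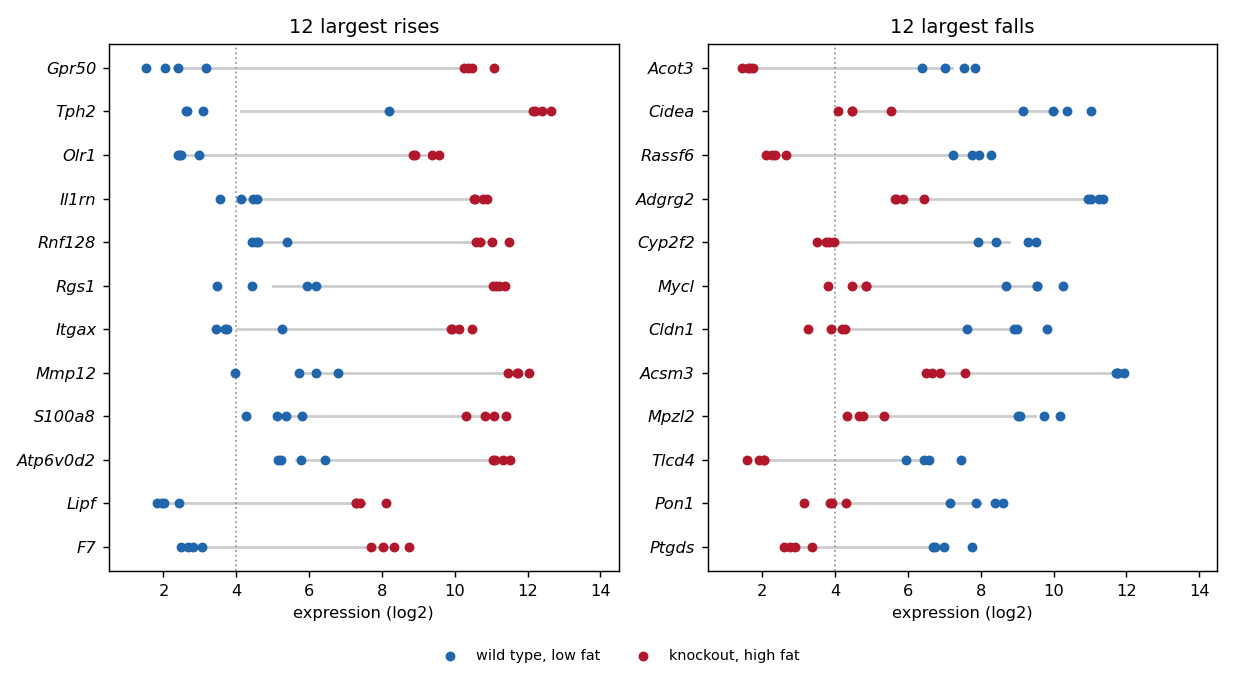
Expression (log2, horizontal axis) of the 12 genes with the largest rises and the 12 with the largest falls, chosen among called genes whose arrays did not overlap. Each point is 1 array, grey lines join the group means and the dotted line marks a log2 of 4; the wild-type low fat array of Tph2 at 8.19 stands apart from the other 3 of its group.

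The 12 largest falls included genes known from peroxisomal and mitochondrial lipid metabolism, brown fat and tight junctions. Acot3, a peroxisomal acyl-CoA thioesterase, fell from 7.84, 6.38, 7.54 and 7.03 to 1.44, 1.76, 1.67 and 1.62. The knockout values all lay near the bottom of the scale, and the fall was 5.57 (SE 0.27, adjusted p = 2.02e-09), or 3.20 with the floor at 4. Cidea, a lipid droplet protein of brown and beige fat, was 11.01, 10.36, 9.97 and 9.15 in wild-type low fat and 4.46, 5.53, 4.07 and 4.46 in knockout high fat. No array overlapped, and Cidea fell by 5.50 (SE 0.66, adjusted p = 5.5e-06).

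Adgrg2, an adhesion receptor coupled to G proteins, measured 11.36, 11.23, 10.95 and 11.03 against 5.68, 5.65, 6.44 and 5.86, with tight groups on both sides and a fall of 5.24 (SE 0.24, adjusted p = 2.02e-09). Acsm3, a mitochondrial medium-chain acyl-CoA synthetase, went from 11.70, 11.77, 11.94 and 11.75 to 6.49, 7.57, 6.66 and 6.87, a fall of 4.89 (SE 0.27, adjusted p = 6e-09). Both genes were far above the lower part of the scale in the wild type, and neither value depended on a floor. Mycl, a transcription factor of the Myc family, fell by 5.02 (SE 0.45, adjusted p = 3.15e-07), or by 2.19 as the mean of its probe sets. Cldn1, a claudin of tight junctions, fell by 4.93 (SE 0.40, adjusted p = 1.2e-07) and Mpzl2, an adhesion protein of epithelia, by 4.73 (SE 0.58, adjusted p = 6.45e-06). The other Cldn1 probe sets had group means at or under 3.025 and changed by 0.096, -0.335 and -0.623. Rassf6, Cyp2f2, Tlcd4, Pon1 and Ptgds made up the rest of the 12 and fell by 4.13 to 5.46, or by 2.61 to 4.79 with the floor. Pon1 encodes a paraoxonase carried on HDL and Cyp2f2 a cytochrome P450.

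Of 21 tested genes of mature adipocytes 2 rose, 6 fell and 13 were not called, with a median change of -0.18. The called share of 38.1% is under the background of 46.7%. The rises numbered 0 without wild-type low fat replicate 1, without knockout high fat replicate 1, 3 or 4 and without the arrays with muscle transcripts, and 1 without wild-type low fat replicate 3 or 4. With each array centred on its median 11 of the 21 fell and none rose. Pparg, the nuclear receptor that drives adipocyte differentiation, was 12.50, 11.95, 12.29 and 12.35 in wild-type low fat and 10.73, 11.52, 11.07 and 11.28 in knockout high fat. The groups were separate, and Pparg fell by 1.12 (SE 0.15, adjusted p = 1.72e-05). Pck1, whose enzyme supplies glycerol for triglyceride, fell by 1.06 (SE 0.11, adjusted p = 1.02e-06), Rbp4, the retinol-binding protein, by 1.16 (SE 0.15, adjusted p = 1.18e-05) and Retn, the adipokine resistin, by 0.82 (SE 0.16, adjusted p = 0.000601). Adipoq itself differed by -0.19 (SE 0.09, adjusted p = 0.112) and was not called, although its 4 knockout values all lay under the wild-type values. In whole tissue, here and for every cell type that follows, a change in cell number and a change in RNA per cell cannot be told apart.

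Among adipocyte hormones and secreted factors 4 of 15 rose and 6 fell. Lep, the satiety hormone leptin, was 11.66, 11.74, 11.15 and 12.05 in wild-type low fat and 12.85, 13.25, 13.21 and 13.31 in knockout high fat. Every knockout array was higher, and Lep rose by 1.51 (SE 0.17, adjusted p = 2.04e-06). Metrnl, the secreted factor meteorin-like, rose by 2.27 (SE 0.23, adjusted p = 9.3e-07), or by 1.30 as the mean of its probe sets. Agt, the precursor of angiotensin, moved the other way, from 10.65, 9.54, 10.78 and 10.38 to 7.28, 7.44, 7.61 and 7.82. No array overlapped, and Agt fell by 2.80 (SE 0.29, adjusted p = 1.08e-06). Nrg4, a factor released mainly by brown fat that acts on liver, fell by 1.81 (SE 0.17, adjusted p = 5.01e-07).

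Some genes linked to the expansion of fat mass were among the clearest rises, although the list was mixed. Of 13 tested 7 rose and 4 fell, with a median of 0.47. The falls were of Peg3, Igf2, Grb10 and Cdkn1c. Sfrp5, a secreted inhibitor of Wnt signalling, was 6.83, 7.37, 6.68 and 7.10 in wild-type low fat and 12.10, 11.87, 12.15 and 12.12 in knockout high fat. The groups lay about 5 log2 units apart with little spread, and the rise of 5.06 (SE 0.21, adjusted p = 9.35e-10) corresponds to 33.5-fold. Mest, an imprinted gene that marks adipocyte expansion, went from 9.71, 9.41, 8.87 and 9.07 to 11.98, 12.26, 12.14 and 12.25, a rise of 2.90 (SE 0.17, adjusted p = 7.38e-09). Klf14, an imprinted transcription factor tied to adipocyte size, was 5.10, 4.29, 4.94 and 5.57 against 7.68, 8.14, 8.07 and 8.22 and rose by 3.05 (SE 0.28, adjusted p = 3.96e-07). All 3 had separate groups. Among other Wnt pathway genes, Sfrp1, a related secreted inhibitor, rose by 2.54 (SE 0.19, adjusted p = 6.81e-08) and Sfrp4 by 1.70 (SE 0.34, adjusted p = 0.000673), in a list of 18 with 5 rises and 1 fall. The falls numbered 0 without wild-type low fat replicate 1 or 4 and without replicate 1 of knockout high fat, and 2 without wild-type low fat replicate 2 or 3 and without replicate 1 of knockout low fat.

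Of 21 tested genes of fatty acid synthesis 9 fell, 4 rose and 8 were not called, with a median of -0.17. Acaca, the acetyl-CoA carboxylase that commits carbon to fatty acids, was 12.60, 11.39, 12.03 and 11.66 in wild-type low fat and 9.50, 9.88, 9.60 and 9.49 in knockout high fat. The groups did not overlap, and Acaca fell by 2.30 (SE 0.29, adjusted p = 8.09e-06). Fasn, the fatty acid synthase, fell by 0.98 (SE 0.20, adjusted p = 0.000797), and Mlxipl, the carbohydrate-sensing factor ChREBP, by 1.34 (SE 0.18, adjusted p = 1.81e-05). The desaturase gene Scd2 moved against them, from 10.53, 10.58, 10.34 and 10.20 to 12.04, 11.94, 12.08 and 12.00, a rise of 1.60 (SE 0.14, adjusted p = 2.72e-07). Without the 5 arrays with muscle transcripts 2 genes of this list rose.

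Genes of triglyceride assembly also moved in both directions. Of 15 tested genes 8 fell and 3 rose, with a median of -0.91, and 5 rose without wild-type low fat replicate 3. Gpam, the acyltransferase that takes the first step, fell by 1.39 (SE 0.14, adjusted p = 9.42e-07), and Mogat1, a monoacylglycerol acyltransferase, by 3.23 (SE 0.32, adjusted p = 6.67e-07). Dgat1, which adds the last acyl chain, was 12.44, 11.60, 12.31 and 11.85 against 10.80, 11.21, 10.92 and 11.13, did not overlap and fell by 1.03 (SE 0.25, adjusted p = 0.00279). Pnpla3, a lipid droplet protein known from fatty liver, was the exception in size. It read 6.74, 5.43, 5.38 and 4.34 in wild-type low fat and 9.67, 10.15, 9.51 and 9.69 in knockout high fat. The wild-type arrays were spread over more than 2 units, but none reached a knockout array, and the rise was 4.28 (SE 0.41, adjusted p = 6.14e-07).

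Transcripts for the breakdown of triglyceride and fatty acids, and for its control, fell more often than they rose. Of 12 tested lipolysis genes 6 fell and 1 rose, 2 fell without the 5 arrays with muscle transcripts and 2 rose without wild-type low fat replicate 2. Pnpla2, the adipose triglyceride lipase, was 12.69, 12.67, 12.82 and 12.72 in wild-type low fat and 12.01, 12.07, 12.04 and 12.20 in knockout high fat. The groups were tight and separate, and Pnpla2 fell by 0.64 (SE 0.09, adjusted p = 2.57e-05). Pde3b, the phosphodiesterase through which insulin restrains lipolysis, fell by 1.00 (SE 0.11, adjusted p = 1.41e-06). Npr3, the clearance receptor for natriuretic peptides, rose by 1.16 (SE 0.17, adjusted p = 4.54e-05), or by 1.81 as the mean of its probe sets.

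In fatty acid oxidation 16 of 25 tested genes fell and 1 rose, with a median of -0.60, and 2 rose without replicate 1 or 4 of knockout low fat. Ppara, the nuclear receptor that controls the pathway, was 7.38, 6.29, 6.93 and 6.64 in wild-type low fat and 3.94, 4.45, 4.35 and 3.99 in knockout high fat. The groups did not overlap, and Ppara fell by 2.63 (SE 0.31, adjusted p = 4e-06). Acot4, a peroxisomal thioesterase like Acot3, went from 8.04, 7.05, 7.49 and 7.84 to 3.84, 4.12, 3.79 and 4.05, a fall of 3.65 (SE 0.25, adjusted p = 3e-08). Ehhadh, of peroxisomal beta-oxidation, fell by 1.97 (SE 0.19, adjusted p = 7.04e-07). Cpt1a, the carnitine palmitoyltransferase that admits fatty acids to mitochondria, was the gene that rose, by 0.82 (SE 0.20, adjusted p = 0.00364). Its change was 0.80 when the 5 arrays with muscle transcripts were left out, and the call was lost, at an adjusted p of 0.0595.

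Mitochondrial genes fell by small amounts and those of branched-chain amino acid breakdown by larger ones. Of 32 tested genes of the respiratory chain and citric acid cycle 15 fell and none rose, with a median of -0.29 and no fall of 2-fold. The number of falls was 9 without knockout high fat replicate 1 and 5 without the arrays with muscle transcripts. Sdha, a subunit of succinate dehydrogenase, fell by 0.46 (SE 0.09, adjusted p = 0.000688), and Pdha1, of pyruvate dehydrogenase, by 0.75 (SE 0.14, adjusted p = 0.000415). Of 19 tested genes for the breakdown of valine, leucine and isoleucine 16 fell and none rose, with a median of -0.90. Ppm1k, the phosphatase that activates the branched-chain keto acid dehydrogenase, was 9.02, 8.79, 8.80 and 8.67 in wild-type low fat and 7.07, 7.37, 7.51 and 7.11 in knockout high fat. Over 1 unit separated the groups, and Ppm1k fell by 1.55 (SE 0.13, adjusted p = 1.4e-07). Bcat2, the mitochondrial aminotransferase of the first step, fell by 1.14 (SE 0.25, adjusted p = 0.00167), and Bckdha, a subunit of the dehydrogenase, by 1.05 (SE 0.23, adjusted p = 0.00145). Hsd17b10, which acts in isoleucine breakdown, fell by 1.67 (SE 0.18, adjusted p = 1.5e-06), and Acadsb, the short branched-chain acyl-CoA dehydrogenase, by 1.10 (SE 0.11, adjusted p = 7.18e-07).

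Markers of brown and beige fat fell without exception among the calls, 8 of 13 tested, with a median of -1.01. Ucp1, the uncoupling protein that produces heat, was 10.35, 10.05, 10.27 and 7.80 in wild-type low fat and 5.90, 7.23, 4.81 and 6.04 in knockout high fat. Replicate 4 of the wild type lay 2 units under its group but above every knockout array, and Ucp1 fell by 3.62 (SE 0.81, adjusted p = 0.0017). Ppargc1a, the coactivator PGC-1alpha and a SIRT1 substrate, was 7.45, 6.44, 6.16 and 6.09 against 4.26, 4.73, 4.79 and 4.67. The groups did not overlap, and Ppargc1a fell by 1.92 (SE 0.28, adjusted p = 4.32e-05), its relative Ppargc1b by 1.23 (SE 0.27, adjusted p = 0.00148) and the brown fat factor Ebf2 by 1.01 (SE 0.18, adjusted p = 0.000312). Of 15 tested SIRT1 substrates and their targets 2 rose and 4 fell, a called share of 40% that is under the background of 46.7%. The rises were of E2f1, by 1.81 (SE 0.16, adjusted p = 3.42e-07), and Usf1, by 0.79 (SE 0.30, adjusted p = 0.0404). The falls included Pparg, Ppargc1a and the transcription factor gene Foxo1. Foxo1 fell by 0.56 (SE 0.13, adjusted p = 0.00231). When the arrays with muscle transcripts were left out it fell by 0.48 and lost its call, at an adjusted p of 0.0833. In this list 8 genes fell without wild-type low fat replicate 2 and 2 without the arrays with muscle transcripts, and 1 rose without wild-type low fat replicate 3, any single knockout high fat array or those with muscle transcripts.

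Genes of insulin signalling and glucose uptake were lower in 14 of 26 tested and higher in 6, with a median of -0.58. Insr, the insulin receptor, was 11.36, 10.99, 11.35 and 11.42 in wild-type low fat and 9.72, 9.85, 9.76 and 9.95 in knockout high fat. No array overlapped, and Insr fell by 1.46 (SE 0.13, adjusted p = 2.56e-07), or by 0.79 as the mean of its probe sets. Slc2a4, the insulin-responsive glucose transporter GLUT4, fell by 0.84 (SE 0.19, adjusted p = 0.00153) and Irs2, an insulin receptor substrate, by 1.29 (SE 0.19, adjusted p = 3.2e-05). Pdk2, a kinase that inhibits pyruvate dehydrogenase, went from 11.87, 11.56, 11.92 and 11.61 to 9.72, 9.53, 9.69 and 9.69, a fall of 2.08 (SE 0.16, adjusted p = 6.2e-08). Grb14, an adaptor that inhibits the insulin receptor, rose by 2.04 (SE 0.25, adjusted p = 6.12e-06), or by 1.05 as the mean of its probe sets.

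Of 20 tested genes of cholesterol synthesis and transport 9 rose and 3 fell, with a median of 0.35. The falls were of the synthesis genes Pmvk and Fdft1 and of Npc1, which carries cholesterol out of lysosomes. Dhcr7, of the last step of the pathway, was 9.29, 9.33, 9.48 and 9.04 in wild-type low fat and 11.09, 10.76, 10.95 and 11.01 in knockout high fat. Over 1 unit lay between the groups, and Dhcr7 rose by 1.67 (SE 0.12, adjusted p = 4.38e-08). Mvk, the mevalonate kinase, rose by 0.85 (SE 0.13, adjusted p = 4.61e-05), and Mvd, a decarboxylase of the same branch, by 1.11 (SE 0.15, adjusted p = 1.37e-05). Hmgcs1, at the start of the pathway, differed by 0.19 (SE 0.11, adjusted p = 0.166) and was not called. As the mean of its probe sets it rose by 0.27 and was called, at an adjusted p of 0.0233. Among 16 tested apolipoproteins and lipid carriers 4 rose and 6 fell. Apoc3, an apolipoprotein that restrains lipoprotein lipase, went from 11.59, 9.85, 11.24 and 9.04 to 5.78, 5.92, 6.85 and 6.78, a fall of 4.09 (SE 0.43, adjusted p = 1.37e-06), whereas Apoe, the apolipoprotein of lipid clearance, differed by -0.17 (SE 0.14, adjusted p = 0.326) and was not called.

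Clock genes fell more often than they rose, 10 against 3 of 17 tested, with a median of -0.82. Nr1d1, the repressor REV-ERB alpha, was 10.06, 9.36, 9.76 and 9.97 in wild-type low fat and between 6.13 and 7.31 in the 4 knockout high fat arrays. The groups were separate, and Nr1d1 fell by 3.12 (SE 0.26, adjusted p = 1.4e-07). Hlf, a clock-controlled factor, fell by 2.44 (SE 0.21, adjusted p = 1.93e-07), and Per1, a period gene, by 1.22 (SE 0.18, adjusted p = 4.2e-05). The labels give no hour of tissue collection, and its part in the clock genes was not tested. Among 18 tested immediate early genes 6 rose and 2 fell, a called share of 44.4% that is near the background of 46.7%. The falls were of Nr4a3 and Ier3, and Egr1 was not called. In this list 4 fell without wild-type low fat replicate 3 or without the arrays with muscle transcripts. Egr2 was 6.37, 5.68, 5.45 and 6.57 against 11.30, 10.33, 10.35 and 10.20 and rose by 4.53 (SE 0.37, adjusted p = 1.14e-07), and the stress factor Atf3 rose by 3.72 (SE 0.44, adjusted p = 4.91e-06). Fos, a subunit of AP-1, was 7.16, 9.13, 7.08 and 10.11 in wild-type low fat, a spread of 3 units, and 11.22, 11.42, 11.64 and 11.71 in knockout high fat, and rose by 3.12 (SE 0.56, adjusted p = 0.000274).

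Collagens of the fat matrix rose. Of 17 tested genes 15 rose and none fell, with a median of 1.50, and in 15 the arrays did not overlap. Col6a3, a chain of the collagen VI that surrounds adipocytes, was 9.27, 9.34, 9.40 and 9.23 in wild-type low fat and 10.97, 10.76, 11.29 and 11.26 in knockout high fat. The groups were more than 1 unit apart, and Col6a3 rose by 1.76 (SE 0.22, adjusted p = 8.33e-06). Col15a1, a basement membrane collagen, went from 7.82, 7.22, 6.86 and 6.53 to 10.91, 10.86, 10.82 and 10.89, a rise of 3.76 (SE 0.22, adjusted p = 6.75e-09), and Col1a1, of fibrillar collagen, rose by 1.68 (SE 0.23, adjusted p = 1.68e-05). Among 31 tested genes of matrix remodelling 17 rose and 3 fell. The falls numbered 1 without wild-type low fat replicate 3 or 4, without knockout high fat replicate 1 and without the arrays with muscle transcripts, and 5 with arrays centred. Timp1, an inhibitor of metalloproteinases, was 4.78, 4.70, 4.00 and 4.15 against 8.96, 7.56, 8.91 and 8.28 and rose by 4.02 (SE 0.38, adjusted p = 5.17e-07). Mmp3, the protease stromelysin, rose by 2.05 (SE 0.15, adjusted p = 4.92e-08), and Adam8, a membrane protease of leukocytes, by 5.20 (SE 0.47, adjusted p = 3.09e-07). Fibroblast progenitor markers moved in both directions, with 6 of 14 up and 2 down, 1 down without the arrays with muscle transcripts. Thy1 rose by 1.34 (SE 0.19, adjusted p = 3.1e-05), while Pdgfra differed by -0.12 (SE 0.16, adjusted p = 0.565) and was not called.

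Macrophage markers were mostly higher. Of 26 tested genes 22 rose and none fell, with a median of 1.39, and 21 had arrays that did not overlap. Without wild-type low fat replicate 2 there was 1 fall. Adgre1, the macrophage antigen F4/80, was 9.14, 10.00, 9.20 and 9.34 in wild-type low fat and 12.05, 11.38, 11.86 and 11.61 in knockout high fat. The groups were separate, and Adgre1 rose by 2.31 (SE 0.21, adjusted p = 3.65e-07). Cd68, a lysosomal protein of macrophages, varied over almost 2 units in the wild type, 8.67, 9.48, 9.95 and 10.57, and was 11.78, 12.14, 12.15 and 12.05 in the knockout, a rise of 2.36 (SE 0.35, adjusted p = 4.88e-05). Clec7a, the beta-glucan receptor, rose by 2.55 (SE 0.14, adjusted p = 6e-09) and Fcgr1, the high-affinity IgG receptor, by 3.39 (SE 0.31, adjusted p = 3.36e-07). The mean over the 26 measured markers was 9.04 to 9.31 in the wild-type low fat arrays and 10.53 to 10.62 in the knockout high fat arrays. Of 16 tested markers of resident tissue macrophages 7 rose and 1 fell, with a median of 0.26. Without wild-type low fat replicate 1, whose mean over these markers was 9.23 against 10.03 to 10.25 in the other 3 arrays of its group, 4 fell. Folr2, a folate receptor, rose by 1.72 (SE 0.25, adjusted p = 4.11e-05) and Mrc1, the mannose receptor, by 0.61 (SE 0.14, adjusted p = 0.00248). Cd163, the haemoglobin scavenger receptor, overlapped between the groups and differed by -0.29 (SE 0.18, adjusted p = 0.205), which was not called.

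Genes of lipid-loaded macrophages rose too. Of 22 tested 18 rose and none fell, with a median of 1.67, 14 of them at least 2-fold. Trem2, a lipid-sensing receptor that drives this state, was 4.74, 5.03, 4.71 and 4.91 in wild-type low fat and 10.39, 10.16, 10.40 and 9.86 in knockout high fat. The groups lay about 5 units apart, and Trem2 rose by 5.35 (SE 0.39, adjusted p = 4.61e-08), or by 2.73 as the mean of its probe sets. Ctsk, the collagen-cutting cathepsin K, went from 6.13, 6.40, 6.45 and 7.01 to 10.00, 9.23, 9.85 and 9.28, a rise of 3.09 (SE 0.22, adjusted p = 3.8e-08). Cd9, a tetraspanin of these cells, overlapped between the groups with 8.60, 9.76, 7.39 and 9.87 against 9.69, 11.00, 10.83 and 11.14. It rose by 1.76 (SE 0.52, adjusted p = 0.0116). When the arrays with muscle transcripts were left out it rose by 1.32 and lost its call, at an adjusted p of 0.111. Lysosomal genes rose with them, 22 of 29 tested and none down, with a median of 0.73, and 1 down without replicate 2 of either group. Gusb, the beta-glucuronidase, was 8.94, 8.85, 9.26 and 9.11 against 11.29, 11.16, 11.10 and 10.82, did not overlap and rose by 2.05 (SE 0.15, adjusted p = 4.75e-08). Tfec, a transcription factor of the MiT family found in macrophages, rose by 1.80 (SE 0.17, adjusted p = 4.31e-07), or by 1.59 with the floor at 4.

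**Figure D2:**
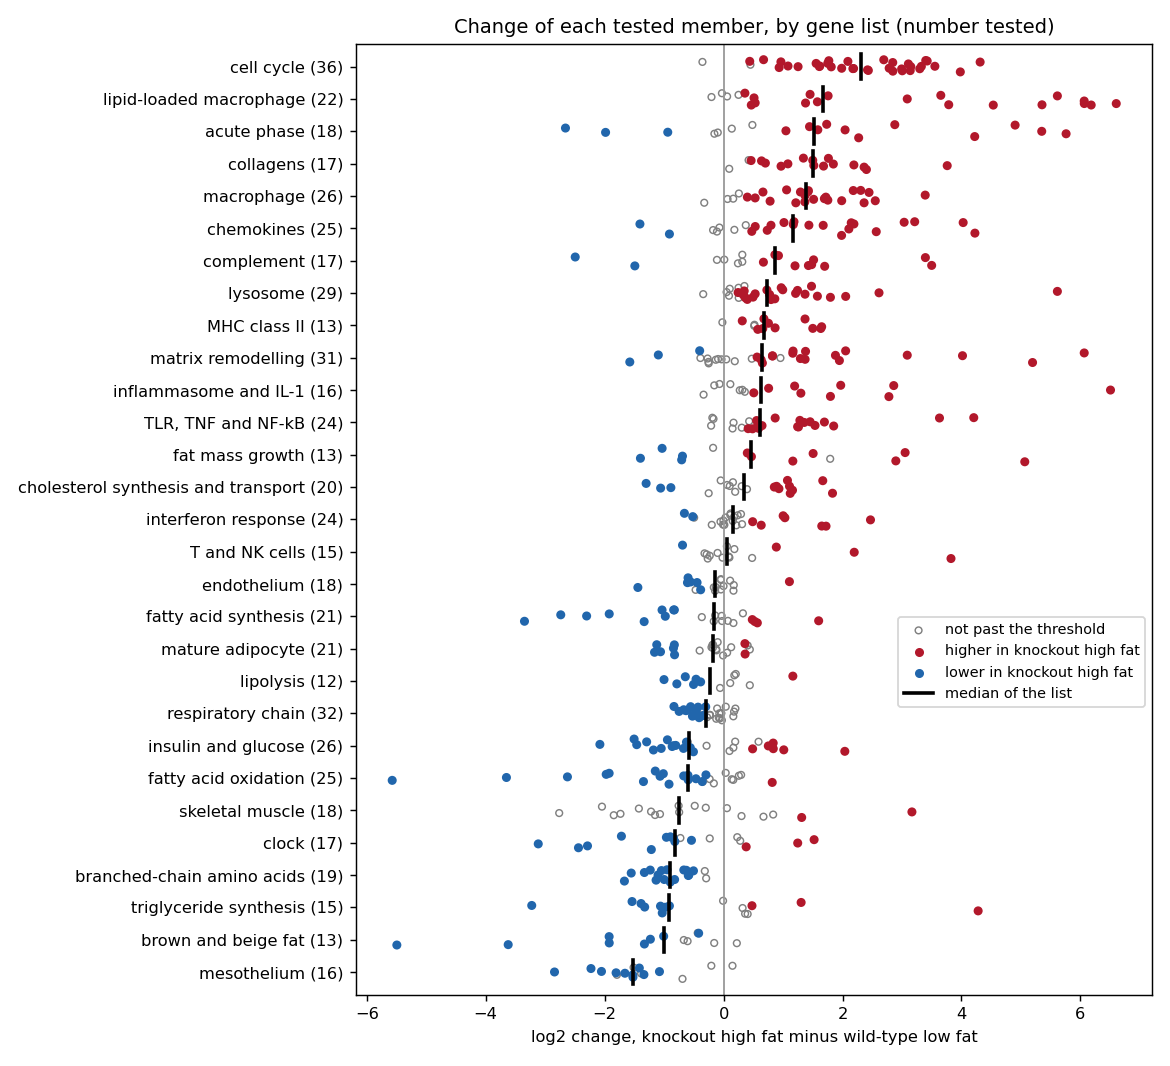
Log2 change between knockout high fat and wild-type low fat tissue (horizontal axis) for each tested member of 29 gene lists, with the number tested in brackets. Filled points passed an adjusted p under 0.05, open points did not and black bars are list medians, which ran from 2.30 for the cell cycle to -1.52 for the mesothelium.

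Chemokines and the receptors they act on rose in 18 of 25 tested genes and fell in 2, with a median of 1.17, and 1 fell if replicate 2 of wild-type low fat or replicate 1 of knockout high fat was left out. Ccl2, which draws monocytes, was 5.63, 5.26, 4.81 and 5.76 in wild-type low fat and 8.48, 8.12, 8.50 and 8.52 in knockout high fat. Over 2 units separated the groups, and Ccl2 rose by 3.04 (SE 0.38, adjusted p = 8.06e-06). Ccr2, its receptor, rose by 1.17 (SE 0.20, adjusted p = 0.00014). Ccl3, an inflammatory chemokine, lay under 4 in every wild-type array, 3.16, 2.75, 2.89 and 3.21, and was 7.30, 6.77, 7.75 and 7.09 in the knockout. Its rise was 4.23 (SE 0.33, adjusted p = 9.53e-08), or 3.23 with the floor at 4. Cytokine genes themselves were often too dim to test. Tnf read at most 3.32 and Il1b at most 3.31 in the 8 arrays, and neither passed the filter.

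Interleukin-1 and inflammasome genes rose in 9 of 16 tested and none fell, with a median of 0.63, and 1 fell without wild-type low fat replicate 3. Casp1, the protease that matures interleukin-1 beta, was 9.31, 9.87, 9.82 and 9.57 in wild-type low fat and 11.22, 10.91, 10.77 and 10.86 in knockout high fat. The groups did not overlap, and Casp1 rose by 1.30 (SE 0.14, adjusted p = 2.14e-06). Pycard, the adaptor ASC, rose by 2.86 (SE 0.24, adjusted p = 1.47e-07), or by 1.39 as the mean of its probe sets. Naip2, a sensor of bacterial proteins, went from 5.49, 6.44, 5.98 and 5.92 to 9.10, 8.57, 8.77 and 8.52, a rise of 2.78 (SE 0.22, adjusted p = 1.03e-07). The list also holds Il1rn, whose product opposes interleukin-1.

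Toll-like receptor, TNF and NF-kB genes rose in 17 of 24 tested and none fell, with a median of 0.62, and 1 fell without wild-type low fat replicate 2. Tlr13, a receptor for bacterial ribosomal RNA, was 4.96, 5.02, 5.66 and 5.25 in wild-type low fat and 9.92, 9.35, 9.54 and 8.92 in knockout high fat. The groups were more than 3 units apart, and Tlr13 rose by 4.21 (SE 0.37, adjusted p = 2.6e-07). Tlr2 rose by 1.26 (SE 0.13, adjusted p = 8.11e-07). Nfkb2, which encodes the p100 precursor of NF-kB, rose by 0.87 (SE 0.17, adjusted p = 0.000628), or by 0.55 as the mean of its probe sets. Tnfaip3, the NF-kB inhibitor A20, rose by 1.70 (SE 0.15, adjusted p = 3.42e-07), or by 0.98 as the mean of its probe sets.

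Acute phase genes moved strongly, 11 of 18 tested up and 3 down, with a median of 1.51. Lcn2, the iron-binding protein lipocalin 2, was 5.34, 4.21, 5.90 and 6.14 in wild-type low fat and 10.92, 10.09, 10.95 and 11.03 in knockout high fat. The groups were about 4 units apart at their closest, and Lcn2 rose by 5.35 (SE 0.38, adjusted p = 3.8e-08). Saa3, the serum amyloid of fat and macrophages, rose by 2.27 (SE 0.29, adjusted p = 8.61e-06), and Lbp, the lipopolysaccharide-binding protein, by 2.04 (SE 0.16, adjusted p = 9.53e-08). Cp, the copper carrier ceruloplasmin, fell by 1.98 (SE 0.18, adjusted p = 4.08e-07). Complement genes rose in 10 of 17 and fell in 2. C3ar1, the receptor for C3a, was 6.92, 8.09, 7.46 and 8.30 against 11.41, 10.92, 11.19 and 10.84 and rose by 3.39 (SE 0.28, adjusted p = 1.22e-07). Masp1, a protease of the lectin pathway, fell by 2.50 (SE 0.28, adjusted p = 2.31e-06), or by 1.42 as the mean of its probe sets.

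Antigen presentation genes rose, and interferon genes moved in both directions. Of 13 tested MHC class II genes 10 rose and none fell, with a median of 0.68. H2-DMa, which loads peptides onto class II molecules, was 6.99, 7.42, 7.57 and 7.10 in wild-type low fat and 8.75, 8.99, 8.89 and 8.98 in knockout high fat. The groups were more than 1 unit apart, and H2-DMa rose by 1.63 (SE 0.18, adjusted p = 1.62e-06). Ifi30, a lysosomal reductase for antigen processing, rose by 1.65 (SE 0.20, adjusted p = 5.08e-06). Among 24 tested interferon-response genes 7 rose and 2 fell, with a median of 0.16, a share of calls under the background of 46.7%, and 1 fell on leaving out wild-type low fat replicate 2 or 3, replicate 1 of knockout low fat, replicate 1 or 4 of wild-type high fat, replicate 1, 2 or 4 of knockout high fat or the arrays with muscle transcripts. Zbp1, a sensor of nucleic acids, rose by 1.72 (SE 0.20, adjusted p = 4.36e-06) and Oas1a, an antiviral synthetase, by 1.65 (SE 0.23, adjusted p = 1.99e-05). Irf7, the factor that amplifies type I interferon, differed by 0.01 (SE 0.19, adjusted p = 0.964) and was not called.

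Lymphocyte markers were mostly not called. Of 15 tested T and NK cell genes 3 rose and 1 fell, with a median of 0.06, and 2 fell without wild-type low fat replicate 4. The T cell receptor subunit Cd3e overlapped between the groups, with 5.58, 6.17, 5.66 and 4.84 against 4.42, 5.55, 5.58 and 5.64, and differed by -0.27 (SE 0.28, adjusted p = 0.457). Il7r, the interleukin-7 receptor, was 7.22, 7.51, 7.26 and 6.71 in wild-type low fat and 11.35, 10.73, 11.30 and 10.62 in knockout high fat. It rose by 3.82 (SE 0.38, adjusted p = 7.97e-07), with no overlap. Gzma, a granzyme of killer cells, rose by 2.197 (SE 0.39, adjusted p = 0.000222). Of 8 tested B cell genes 4 rose, among them Cd79b, a subunit of the B cell receptor, by 1.52 (SE 0.22, adjusted p = 2.95e-05), while Ms4a1, which encodes CD20, differed by 0.04 (SE 0.46, adjusted p = 0.949). Of 9 tested mast cell and eosinophil genes 2 rose and 1 fell, and 1 rose without wild-type low fat replicate 1 or 3, without knockout high fat replicate 1 or 3 and without the arrays with muscle transcripts. Kit, the stem cell factor receptor, fell by 1.64 (SE 0.33, adjusted p = 0.00068), while the mast cell protease Cpa3 differed by 0.17 (SE 0.26, adjusted p = 0.626).

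Genes of cell division had the highest median of the 50 lists, 2.30. Of 36 tested 34 rose and none fell, 30 rose at least 2-fold, and 34 had arrays that did not overlap. A single gene fell without knockout high fat replicate 1. Mki67, the proliferation antigen Ki-67, was 5.33, 4.96, 4.19 and 3.84 in wild-type low fat and 8.20, 7.93, 7.98 and 7.91 in knockout high fat. The groups were more than 2 units apart, and Mki67 rose by 3.42 (SE 0.33, adjusted p = 5.48e-07). Tk1, the thymidine kinase of S phase, went from 3.56, 2.96, 3.37 and 2.82 to 7.61, 7.22, 7.62 and 7.53, a rise of 4.31 (SE 0.31, adjusted p = 4.41e-08), or 3.49 with the floor at 4. Aurkb, a mitotic kinase, rose by 3.33 (SE 0.20, adjusted p = 1.17e-08). Ccnb2, the mitotic cyclin B2, was 2.97, 3.12, 2.64 and 2.48 against 5.84, 5.54, 5.91 and 5.94 and rose by 3.00 (SE 0.18, adjusted p = 1.09e-08), or by 1.81 with the floor. Bub1, a kinase of the spindle checkpoint, was 2.56, 2.00, 2.13 and 2.03 against 6.04, 5.41, 5.31 and 6.17 and rose by 3.55 (SE 0.24, adjusted p = 2.43e-08), or by 1.73 with the floor. Whole tissue does not show which cells divided.

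Promoters of these genes share letters that are known from late cell cycle promoters, and 2 of them are shown because they hold both kinds. The CCAAT box is known to bind the factor NF-Y, and TTTGAA is the core of the cell cycle homology region read by MuvB complexes. The sequences are from RefSeq on GRCm38.p6, 250 bases before to 50 after the gene start, 5′ to 3′ on the strand of the gene. Capitals mark CCAAT or TTTGAA on either strand. Ccnb2 lies on the minus strand at chr9:70421505-70421804 and Prc1, a protein of the dividing spindle, on the plus strand at chr7:80294201-80294500.
Ccnb2: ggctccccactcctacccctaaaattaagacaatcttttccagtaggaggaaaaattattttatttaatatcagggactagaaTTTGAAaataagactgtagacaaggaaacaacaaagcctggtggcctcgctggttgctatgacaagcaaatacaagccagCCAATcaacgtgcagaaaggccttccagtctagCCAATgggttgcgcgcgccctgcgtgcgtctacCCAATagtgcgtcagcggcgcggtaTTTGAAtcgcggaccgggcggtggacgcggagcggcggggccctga
Prc1: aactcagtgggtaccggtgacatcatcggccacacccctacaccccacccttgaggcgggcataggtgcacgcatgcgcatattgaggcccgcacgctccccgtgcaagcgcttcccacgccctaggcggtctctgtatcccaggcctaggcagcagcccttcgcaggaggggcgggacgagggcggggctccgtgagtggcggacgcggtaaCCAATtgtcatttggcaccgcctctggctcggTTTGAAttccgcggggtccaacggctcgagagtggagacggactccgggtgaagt
In the promoter of Ccnb2, CCAAT starts at -87, -54 and -21 and TTTGAA at -167 and 5, counted from 1 at the gene start. In that of Prc1, CCAAT starts at -37 and TTTGAA at -5. Promoters were in the table for 30 of the 36 tested cell cycle genes. CCAAT was found on either strand in 76.7% of the 30 and in 41.1% of the 27025 genes in the table. TTTGAA was found in 46.7% of the 30 and in 20.2% of all genes. TTTCGCGC, a form of the E2F site, was found in 16.7% and 0.4%. Among the 14 lipid-loaded macrophage genes with a promoter, CCAAT was found in 57.1% and TTTGAA in 21.4%. Of the site forms of MiT factors searched, TCATGTGA was found in 2 of the 14 genes and in 1.1% of all genes, and GTCACGTG in 0 of the 14 and in 2.5% of all genes. Matches of different motifs can share at most 1 base, and a match describes letters, not binding.

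Of 22 tested genes of the unfolded protein response 8 rose and 2 fell, a called share of 45.5% that is near the background of 46.7%. Without the arrays with muscle transcripts 4 rose and 1 fell. Sdf2l1, an endoplasmic reticulum chaperone partner, was 3.59, 4.14, 4.02 and 4.95 in wild-type low fat and 6.46, 6.74, 6.83 and 7.12 in knockout high fat. It rose by 2.61 (SE 0.32, adjusted p = 6.18e-06) with no overlap, and Edem1, of protein quality control, rose by 1.45 (SE 0.18, adjusted p = 9.16e-06). Of 28 tested antioxidant genes 7 rose and 4 fell, 39.3% in all and under the background, with 4 rises without those arrays. Hmox1, the haem oxygenase, was 7.44, 8.21, 7.73 and 8.80 against 10.62, 10.75, 10.70 and 11.02 and rose by 2.73 (SE 0.24, adjusted p = 3.08e-07). Gpx3, the secreted glutathione peroxidase, fell by 1.02 (SE 0.13, adjusted p = 8.08e-06). Of 20 tested eicosanoid genes 8 rose and 4 fell, with 2 falls without them. Tbxas1, the thromboxane synthase, rose by 2.42 (SE 0.25, adjusted p = 1.37e-06), and Ptgfr, the prostaglandin F receptor, fell by 2.28 (SE 0.25, adjusted p = 1.7e-06). Of the 6 tested genes of serotonin and dopamine all were called, 3 up and 3 down. Beside Tph2, Maoa, which breaks serotonin down, rose by 1.55 (SE 0.23, adjusted p = 3.82e-05), and the dopamine receptor gene Drd1 fell from 5.91, 6.75, 6.45 and 6.29 to 3.10, 3.33, 3.34 and 3.25, by 3.09 (SE 0.20, adjusted p = 1.91e-08) or by 2.35 with the floor at 4.

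Some markers of other cell types moved as well. Mesothelial genes, from the lining of visceral fat, fell in 10 of 16 tested and rose in none, with a median of -1.52. Wt1, a transcription factor of mesothelium, was 9.75, 9.62, 8.47 and 9.52 in wild-type low fat and 6.87, 7.49, 8.20 and 7.57 in knockout high fat. Wild-type low fat replicate 3 was low for these genes, but no array overlapped, and Wt1 fell by 1.81 (SE 0.30, adjusted p = 0.000127). Upk3b, a mesothelial uroplakin, fell by 1.53 (SE 0.28, adjusted p = 0.000339). The mean over the 16 measured mesothelial markers was 8.04 to 9.27 in wild-type low fat and 7.02 to 8.01 in knockout high fat. The part of these markers in the falls of Cldn1 and Mpzl2 was not tested. Endothelial genes fell in 6 of 18 and rose in 1, Cldn5, a called share of 38.9% that is under the background of 46.7%. Of these genes 2 fell without knockout high fat replicate 1, 3 without wild-type low fat replicate 3 or 4 and 1 without the arrays with muscle transcripts. Kdr, the VEGF receptor, was 9.32, 9.05, 9.71 and 9.66 against 7.62, 8.11, 7.84 and 8.41, did not overlap and fell by 1.44 (SE 0.17, adjusted p = 3.8e-06), while Pecam1 differed by -0.13 (SE 0.19, adjusted p = 0.607).

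Of 18 tested muscle genes 2 rose and none fell, with a median of -0.75. The rises numbered 0 without wild-type low fat replicate 1 or 2, 1 without knockout high fat replicate 1 or 4 and 4 without the arrays with muscle transcripts, and 1 gene fell without wild-type low fat replicate 2. The mean over the 19 measured muscle markers was 4.85 to 8.05 in wild-type low fat and 4.88 to 6.999 in knockout high fat. Pvalb, the calcium buffer parvalbumin, was one of the 2, with 5.21, 3.69, 8.91 and 7.83 against 9.33, 9.59, 9.52 and 9.88. It rose by 3.17 (SE 1.04, adjusted p = 0.0201), and by 5.03 without the arrays with muscle transcripts. The call was lost when replicate 1 of wild-type low fat was left out, at an adjusted p of 0.0615, and when replicate 2 was, at an adjusted p of 0.0712. In the 8 arrays the means over markers of mammary, epididymal and bladder epithelium were near the bottom of the scale. Krt14 read at most 3.17, Lcn5 at most 2.42 and Upk2 at most 3.17 in the 8 arrays. In wild-type high fat replicate 4 the mean was 8.64 over the 12 measured bladder markers and 4.40 over the mammary ones. That array enters the spread, the single steps and the departures from their sum given below. Without it 5608 genes were changed and 1436 departed.

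**Figure D3:**
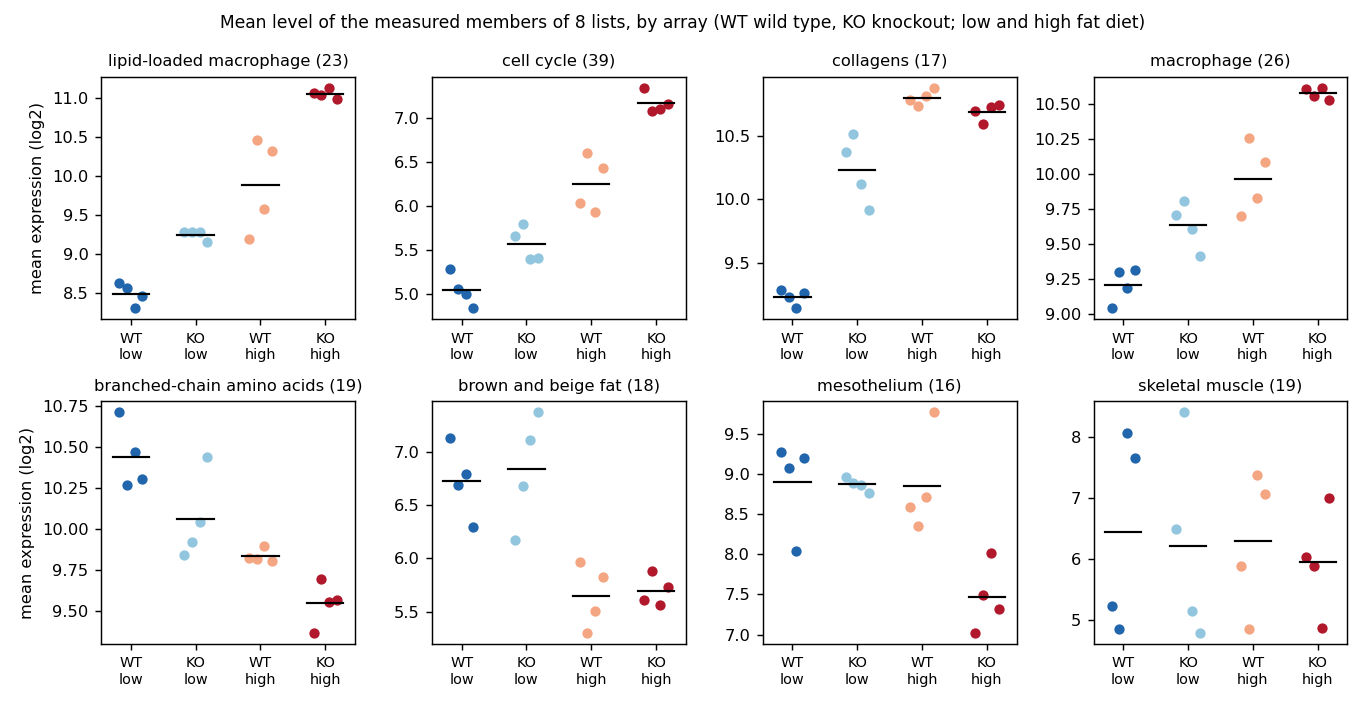
Mean expression (log2, vertical axis) over the measured members of 8 gene lists, with the number measured in brackets, in each of the 16 arrays. Points are arrays and bars group means; lipid-loaded macrophage genes were at 8.30 to 8.62 in wild-type low fat and 10.99 to 11.13 in knockout high fat, while muscle genes ranged widely within every group.

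The 8 other arrays show how far diet alone or knockout alone went along the same line. Each array was placed on the line from the mean of wild-type low fat, at 0, to the mean of knockout high fat, at 1, over the 5638 called genes. Wild-type high fat arrays lay at 0.52, 0.73, 0.61 and 0.67, and knockout low fat arrays at 0.46, 0.44, 0.35 and 0.33. Neither intermediate group overlapped a corner or the other. No test is given, because the genes were chosen by the corners. Per gene, the median position of wild-type high fat was 0.62 for the genes that rose and 0.68 for those that fell, and that of knockout low fat was 0.41 and 0.42. Both intermediate means lay between the corners in 3778 of the 5638 genes. In 551 of the rising genes and 471 of the falling genes wild-type high fat tissue had gone beyond knockout high fat tissue.

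**Figure D4:**
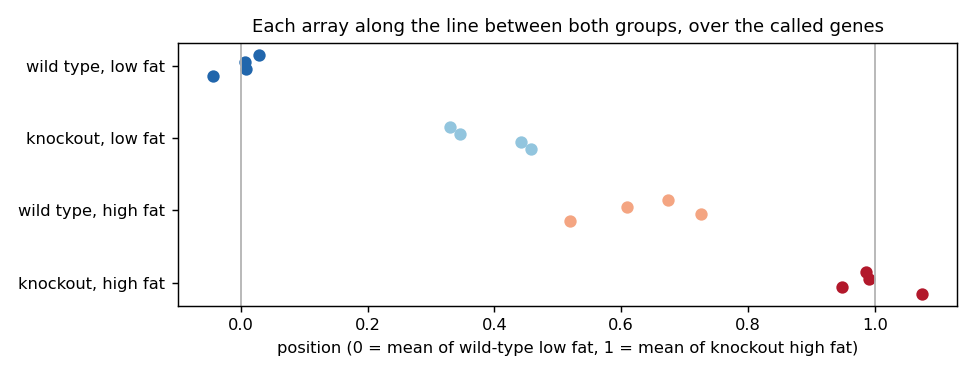
Position of each of the 16 arrays on the line between the means of wild-type low fat (0) and knockout high fat (1), over the 5638 called genes; each point is an array. Knockout low fat arrays sit at 0.33 to 0.46 and wild-type high fat arrays at 0.52 to 0.73.

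The single steps are set beside the whole change for a few genes, with the caution that all share the wild-type low fat arrays. For Cidea the diet step in wild type was -3.95 and the knockout step on low fat 0.01, against -5.50 between the corners. For Sfrp5 the steps were 5.01 and 4.24, against 5.06. Either step alone thus had most of the size of the whole change for Sfrp5, while for Cidea the knockout step on low fat was near 0 and the diet step was smaller than the whole change. For Adgrg2 the steps were -3.26 and -2.27, against -5.24. For Itgax they were 4.18 and 3.33, against 6.07, and for Gpr50 4.14 and -0.15, against 8.26.

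Whether the whole change differed from the sum of both steps was tested as the interaction of genotype and diet. It departed from the sum in 1569 genes, 13% of those tested, upward in 618 and downward in 951. Of these, 980 were also called between the corners. The largest class was of 403 genes that rose by less than the sum, followed by 220 that rose by more, 196 that fell by less and 161 that fell by more. In 320 of the 403 the mean of knockout high fat tissue did not exceed the higher of the 2 single-step means. The count of departures was 424 without the 5 arrays with muscle transcripts and 2382 without wild-type low fat replicate 2.

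Several genes of fat mass departed downward. Sfrp5 departed by -4.19 (SE 0.30, adjusted p = 1.57e-06), Mest by -3.45 (SE 0.24, adjusted p = 1.57e-06) and Klf14 by -4.46 (SE 0.40, adjusted p = 1.1e-05). Array by array, Mest was 12.53, 12.35, 11.99 and 12.14 in knockout low fat and 12.40, 12.70, 12.76 and 12.62 in wild-type high fat, and so already as high as in knockout high fat. Abat, the GABA transaminase, departed by -3.01 (SE 0.25, adjusted p = 7.34e-06) and Ptchd4, a patched-domain membrane protein, by -4.64 (SE 0.36, adjusted p = 3.86e-06). Of the 13 fat mass genes 7 departed downward, and 6 without the arrays with muscle transcripts. Of 17 collagens 9 did, and 5 without those arrays, with Col15a1 at -2.94 (SE 0.30, adjusted p = 4.2e-05). Of 18 Wnt genes 8 did, and 3 without them. The sums for Sfrp5 and Mest, 16.2 and 15.6, lie above the highest value in the deposited table, 14.2. This held for 5 of the 1569 genes, and 4 had a sum under the lowest value of 0.594.

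Among the genes that fell by less than the sum, Acot3 departed by 4.30 (SE 0.38, adjusted p = 9.03e-06), Drd1 by 3.33 (SE 0.28, adjusted p = 7.34e-06) and Npc1, a cholesterol transporter of lysosomes, by 2.19 (SE 0.26, adjusted p = 0.000133). Acot3 and Drd1 are among the 4 with a sum under the range of the table, at -2.68 and -0.08. Nr4a3, an orphan nuclear receptor, was 7.71, 7.49, 7.91 and 7.002 in knockout low fat, 6.40, 7.19, 6.83 and 7.53 in wild-type high fat and 6.90, 6.84, 6.97 and 7.21 in knockout high fat. It departed by 2.76 (SE 0.34, adjusted p = 0.000168), and between the corners it fell by 3.32 (SE 0.24, adjusted p = 4.38e-08), or by 1.03 as the mean of its probe sets.

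Other genes rose by more than the sum of both steps. Nrcam, a neuronal cell adhesion molecule, was 3.53, 3.44, 3.33 and 3.77 in wild-type low fat, 3.33, 4.11, 3.54 and 3.41 in knockout low fat, 3.87, 3.89, 4.11 and 3.73 in wild-type high fat and 6.34, 5.80, 6.41 and 6.55 in knockout high fat. The 3 other groups stayed at or under 4.11 and the knockout high fat arrays stood apart, with a departure of 2.30 (SE 0.26, adjusted p = 8.9e-05). Nrcam passed the filter only through its knockout high fat arrays, so that its low level in the other groups is no added support. Between the corners Nrcam rose by 2.76, or by 2.27 with the floor at 4. The other Nrcam probe sets had means at or under 2.907 in both corner groups and changed by 0.482, 0.369 and 0.083 between them. Gpr176, an orphan receptor, rose by 3.22 (SE 0.23, adjusted p = 4.38e-08), or by 2.31 with the floor at 4, and departed by 2.63 (SE 0.32, adjusted p = 0.000198). Ccl3 departed by 2.90 (SE 0.47, adjusted p = 0.00122), Nlrp10, an NLR family member, by 1.74 (SE 0.25, adjusted p = 0.000521) and Lcn2 by 3.00 (SE 0.53, adjusted p = 0.00225). Lipid-loaded macrophage genes departed upward in 5 of 22, among them Olr1 by 2.48 (SE 0.46, adjusted p = 0.00295) and Trem2 by 2.55 (SE 0.55, adjusted p = 0.0071), and lysosomal genes in 5 of 29. Without the arrays with muscle transcripts no upward departure was called in either list, with an adjusted p of 0.0558 for Olr1 and 0.0519 for Trem2, and that of Lcn2 had an adjusted p of 0.0592. The departures themselves were then 2.39 for Olr1, 2.44 for Trem2 and 2.12 for Lcn2.

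**Figure D5:**
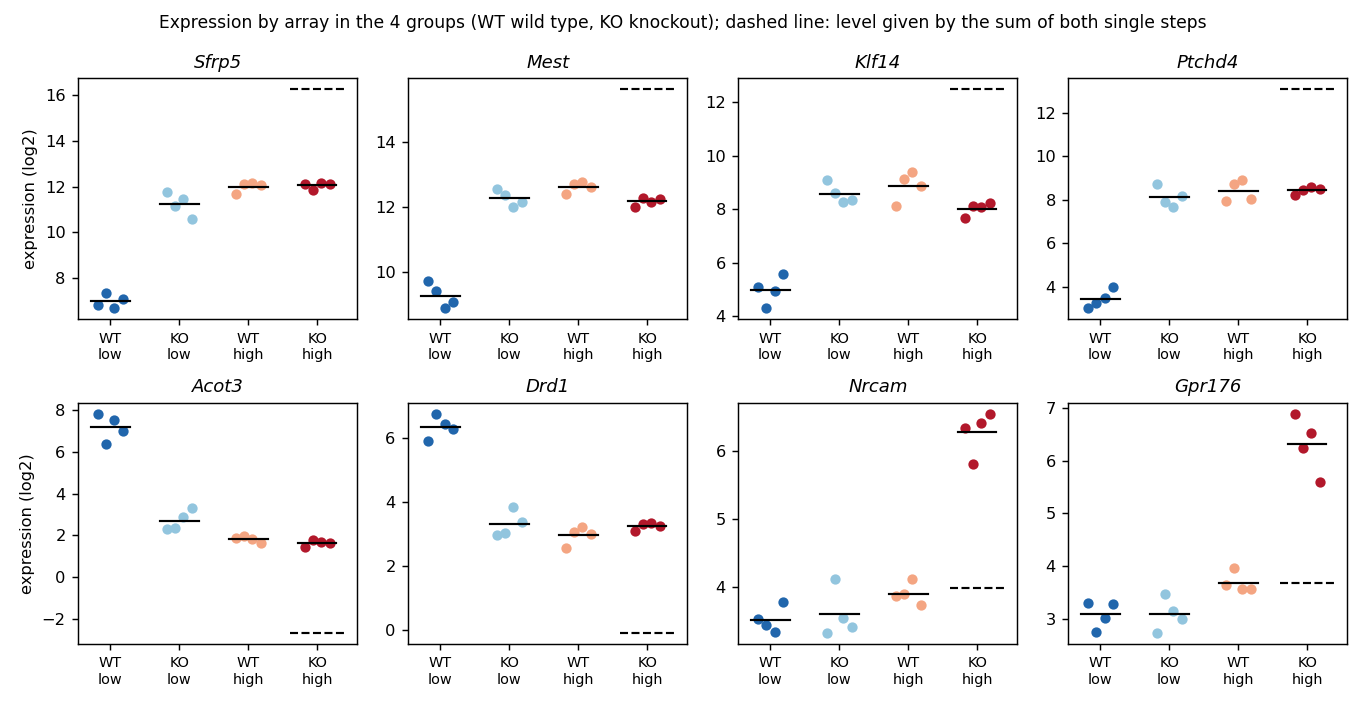
Expression (log2, vertical axis) of 8 genes in the 16 arrays of the 4 groups; points are arrays, solid bars group means and the dashed bar over knockout high fat is the level that the sum of both single steps would give. Sfrp5, Mest, Klf14 and Ptchd4 stay under that level, Acot3 and Drd1 above it after a fall, and Nrcam and Gpr176 exceed it.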

How the data were processed

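Total RNA of white adipose tissue was measured on 16 Affymetrix arrays, 4 in each group. The authors deposited log2 values which the submitters' processing notes tie to GCRMA 2.20.0 and R 2.11.1. GCRMA corrects background from probe sequence and normalizes between arrays, which pulls dim probe sets to low values and can stretch their log2 changes.

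Of 45037 probe sets 34945 had 1 gene symbol, 932 several and 9160 none in GEO's platform annotation, which can be old. The probe set with the highest mean over all arrays stood for each of 18193 genes, and 12078 with a log2 of at least 4 in at least 4 arrays were tested. limma 3.58.1 in R 4.3.3 fitted 1 mean per group over the 16 arrays. Comparisons were knockout high fat against wild-type low fat and the interaction of genotype and diet. The fit was tested on simulated data. Figures were drawn with matplotlib 3.10.9.

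The members and lists were chosen with earlier results of these data known. Genes were named by rule: the 12 largest rises and falls without overlap, the first 2 and up to 4 most significant of each list, the 6 strongest departures each way, and Sirt1. A few others were added after their values were seen. Of 1070 list entries 91 had no match, 7 matched through an older symbol and 972 directly. Alternatives were the filter, the floor, scaling, the arrays fitted, the prior, array weights, probe set averaging, the threshold, the replicate block and leaving out arrays.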

Additional observations from a re-analysis of the deposited data

Results flagged for a closer look

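One array stood apart from the other 3 of its group, by Dixon's test at its critical value, in 22 of 336 groups of 4 arrays over the 168 genes with printed values. That is 6.55% of the groups, where chance flags about 1 in 20. In wild-type low fat tissue, replicate 1 stood apart for Cd163 at 11.31 (others 12.08 to 12.22), Itgax at 5.25 (others 3.45 to 3.73), Mrc1 at 11.10 (others 11.64 to 11.73), Rnf128 at 5.40 (others 4.42 to 4.58) and Tph2 at 8.19 (others 2.62 to 3.10). In wild-type low fat tissue, replicate 2 stood apart for Gpam at 12.58 (others 12.96 to 13.04), Insr at 10.99 (others 11.35 to 11.42) and Olr1 at 2.98 (others 2.41 to 2.49). In wild-type low fat tissue, replicate 3 stood apart for Upk3b at 10.26 (others 11.36 to 11.55). In wild-type low fat tissue, replicate 4 stood apart for Eif2s3y at 2.14 (others 1.85 to 1.90) and Ucp1 at 7.80 (others 10.05 to 10.35). In knockout high fat tissue, replicate 1 stood apart for Adipoq at 13.19 (others 13.42 to 13.45), Cd3e at 4.42 (others 5.55 to 5.64), Egr2 at 11.30 (others 10.20 to 10.35), Kit at 3.37 (others 4.42 to 4.62), Nampt at 8.69 (others 9.56 to 9.72), Nlrp10 at 6.11 (others 5.59 to 5.63) and Slc2a4 at 9.80 (others 10.35 to 10.45). In knockout high fat tissue, replicate 2 stood apart for Ccl2 at 8.12 (others 8.48 to 8.52), Hlf at 5.98 (others 5.39 to 5.43) and Lcn2 at 10.09 (others 10.92 to 11.03). In knockout high fat tissue, replicate 4 stood apart for Lipf at 8.12 (others 7.29 to 7.39).

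The diet change in knockout tissue differed from that in wild-type tissue, by the interaction term of limma with Benjamini-Hochberg adjustment over all genes tested, for 46 of the genes with printed values. The differences are the departures from the sum of both steps, on the log2 scale. A positive difference was found for Apoc3 4.33, Acot3 4.30, Gpr50 4.26, Drd1 3.33, Lcn2 3.00, Ccl3 2.90, Nr4a3 2.76, Gpr176 2.63, Trem2 2.55, Ptgds 2.52, Olr1 2.48, Tlr13 2.42, Nrcam 2.30, Npc1 2.19, Rassf6 2.114, Nlrp10 1.74, Fcgr1 1.56, Tk1 1.54, Bub1 1.53, Bcat2 1.29, Mlxipl 1.01, Hsd17b10 0.91, Clec7a 0.87, Mmp3 0.81, Mvd 0.70 and Gusb 0.69. A negative difference was found for Ptchd4 -4.64, Klf14 -4.46, Sfrp5 -4.19, Mest -3.45, Abat -3.01, Col15a1 -2.94, Sfrp4 -2.06, Gzma -1.91, Lipf -1.64, Upk3b -1.52, Ccr2 -1.49, H2-DMa -1.28, Npr3 -1.26, Lbp -1.20, Hlf -1.20, Col6a3 -1.18, Lep -1.15, Thy1 -0.98, Tnfaip3 -0.92 and Rbp4 -0.71. Without the 5 arrays with muscle transcripts 25 of the 46 had an adjusted p of 0.05 or more, and the other 21 kept an adjusted p under 0.05 under each of the 26 settings tried. The calls for Gusb and Mvd were lost under 14 settings, those for Hsd17b10, Rbp4 and Tk1 under 9 and that for Gzma under 7. The adjusted p-values ran from 1.57e-06 for Mest and Sfrp5 to 0.0429 for Gusb.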

How the results depend on the processing

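For the change between knockout high fat and wild-type low fat, 4520 pairs of a printed gene and an alternative were compared. In 4508 the gene kept its side of the threshold, in 7 it lost the call and in 5 it gained it. No called gene changed direction. Some genes that were not called did, such as Tnnt3, from -1.425 to 0.47 without the 5 arrays with muscle transcripts. The departures of the 46 printed genes that had one lost their call in 95 of 1196 pairs. Unlike the 4520 pairs, these leave out the threshold of 0.01 and the fit of only the 8 arrays of both groups, so that both shares of lost calls are not alike. A pair in which the gene was not tested counted there as not lost. With each probe set tested on its own, 10237 of 21660 probe sets were changed, beside 5638 of 12078 genes. The number of lower genes, 2556, was 1660 without the 5 arrays with muscle transcripts. Departures from the sum, 1569, numbered 2481 with array weights, 576 at an adjusted p of 0.01, 424 without those 5 arrays and 1098 to 2382 with single arrays left out, the highest without wild-type low fat replicate 2. The causes were not tested. With the replicate block 5578 genes were changed, 3050 higher and 2528 lower, and 1390 departed. Same-numbered arrays of both groups deviated with r from -0.23 to 0.20, over 0.1 in 1 of 4 pairs. These 4 pairs are too few to tell whether the numbers pair the samples. Of 2800 list counts under alternatives 172 moved by over 1.5 times. Signal near background limits genes under a log2 of 4.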
